A study of Mus musculus with 7 samples.

Results

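The smooth muscle contractile genes examined here were Acta2, Tagln, Cnn1, Myl9, Actg2, Myh11, Tpm1, Tpm2, Cald1 and Rgs5. They were chosen by name, and all 10 were found by symbol among the 32285 genes of the count tables. Smooth muscle cells shorten when myosin motors pull on actin filaments, and their differentiation is followed by the stepwise appearance of smooth muscle isoforms of actin, myosin and actin-binding proteins. In the pharyngeal arches and the outflow tract of the heart, neural crest cells (NCCs) form the smooth muscle coat of the arch arteries and great vessels. Foxf1 encodes a forkhead transcription factor of visceral and splanchnic mesenchyme, and its transcript was used here to divide the mesenchymal NCCs into Foxf1-positive and other cells.

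Droplet single-cell RNA-seq had been run on EGFP-positive NCCs sorted from Swiss-Webster mouse embryos. The control embryos were Wnt1-Cre/+;ROSA-EGFPf/+, with 1 library at E9.5 and 2 libraries at E10.5. The embryos titled Tbx1 null also gave 1 library at E9.5 and 2 at E10.5, and their genotype label reads Wnt1-Cre/+;Tbx1+/-;ROSA-EGFPf/+, so the title and the label differ. The authors' own summary of the libraries gives these embryos as Wnt1-Cre/+;Tbx1-/-;ROSA-EGFPf/+. They are called null here, as titled. A control library of the anterior embryo at E8.5 was used for described values only and entered no test. All embryos thus carry the Wnt1-Cre driver, which marks NCCs and some dorsal neural cells, and the ROSA-EGFP reporter, and the Tbx1 allele is written as a plain loss allele, not as one cut by Cre. Each library pools 2 or more embryos. By the somite numbers in the authors' summary, the embryos of null replicate 1 at E10.5 were younger than those of each other E10.5 library. At E9.5 the pharyngeal apparatus including the first arch was taken with the heart, and at E10.5 the first arch was left out, so stage and tissue taken cannot be told apart. At E9.5 the control library was made with kit v3.1 and the null library with kit v3, so kit and genotype cannot be told apart there; at E10.5 null replicate 1 was made with v3 and the other 3 libraries with v3.1. The Tbx1 3′ tag, which may lie outside the deleted part and so checks nothing, was counted in both genotypes, at 23.4 and 14.1 CPM, that is, UMIs scaled to a common total of UMIs, in Foxf1-positive cells of the E10.5 controls and at 14.2 and 24.7 in those of the null libraries.

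Libraries held between 140264662 and 234844769 unique molecular identifiers (UMIs), each UMI standing for 1 captured transcript molecule, and library pairs shared at most 0.41% of their cell barcodes. Mesenchymal cells were those with at least 2 UMIs of Twist1, Prrx1 and Prrx2 together, 3 transcription factors of arch mesenchyme. They numbered 5335 in the control and 7081 in the null library at E9.5, and at E10.5 there were 3311 and 6614 in control and 3192 and 2233 in null libraries. Of these, 282 and 546 cells at E9.5, 535 and 806 in the E10.5 controls, and 536 and 336 in the E10.5 null libraries held a Foxf1 UMI. The gate was not free of other cells. Cells with at least 3 UMIs of the neural and glial genes Sox10, Foxd3, Sox2 and Elavl3 made up 17.6% (control) and 14.3% (null) of the gated cells at E9.5, 10.3% and 1.97% in the E10.5 controls, and 25.7% and 45.1% in the E10.5 null libraries. In Foxf1-positive cells this share was lower, at 0.709% and 1.65% at E9.5, 1.68% and 0.993% in the E10.5 controls, and 2.05% and 9.82% in the null libraries. Each comparison of the members between stages, Foxf1 classes or genotypes was also made without these cells. Cardiac muscle cells, with at least 10 UMIs of 6 cardiac genes, made up 0.0756% to 0.493% of the gated cells. The summed level of 3 macrophage markers was at most 0.0458 CPM in either Foxf1 class of the E9.5 and E10.5 libraries, that of 3 skeletal muscle markers at most 2.71 CPM and that of 5 endothelial markers 1.46 to 8.03 CPM, with 1 to 3, 0 to 3 and 0 to 2 of these markers at 0. The 5 blood markers stood apart in null replicate 2 at E10.5, at 10.6 CPM in Foxf1-positive and 9.26 CPM in other cells with none at 0, against at most 2.58 CPM in the other E9.5 and E10.5 libraries.

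The promoter windows of 2 members are shown because they hold matches to a sequence known from this gene group; a match is a description and not a shown binding site. Serum response factor and its partner myocardin act through the CArG box, which reads CC, then 6 bases of A or T, then GG; a near match allows 1 G or C among those 6 bases. In the 250 bases before the RefSeq transcript start (GRCm38.p6), searched on both strands, Myl9 held 1 exact box 161 bases before the start and a near match 99 bases before it. Acta2 held near matches 84 and 34 bases before its start. The windows were chr2:156775214-156775463 on the plus strand for Myl9 and chr19:34255374-34255623 on the minus strand for Acta2, with the boxes in capitals:
Myl9: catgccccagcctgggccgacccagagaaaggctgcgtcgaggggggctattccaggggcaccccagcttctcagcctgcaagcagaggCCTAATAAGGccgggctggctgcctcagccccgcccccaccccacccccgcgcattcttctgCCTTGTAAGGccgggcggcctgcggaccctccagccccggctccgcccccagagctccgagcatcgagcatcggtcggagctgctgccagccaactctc
Acta2: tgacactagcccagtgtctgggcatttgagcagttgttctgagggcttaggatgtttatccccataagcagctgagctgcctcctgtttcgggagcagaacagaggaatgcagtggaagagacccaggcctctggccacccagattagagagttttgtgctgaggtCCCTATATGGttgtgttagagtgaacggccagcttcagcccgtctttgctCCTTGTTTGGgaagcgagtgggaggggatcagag
An exact box was present in 1.47% of all 32851 promoter windows of this length, and an exact or near match in 8.59%. The windows of Cnn1, Tpm1, Tpm2, Cald1 and Rgs5 held neither, which says only that these letters are not in these windows. Tagln, Actg2 and Myh11 were not examined in this way.

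Between E9.5 and E10.5, 6 of the 10 genes were called higher in mesenchymal cells at the later stage and 1 lower. The 6 include Myh11, which passed the low count filter only through the E10.5 libraries, so only a rise could be called for it. Levels are CPM scaled by TMM factors. They are UMIs of the gene as a proportion of all UMIs summed over the cells of the class, after that sum was multiplied by the factor. In mesenchymal cells the factors were 0.756 and 0.790 at E9.5 and 1.04 to 1.24 at E10.5, so comparisons between the stages depend on them. Since the method counts molecules by their 3′ ends, levels are compared between libraries and not between genes. The comparison used edgeR on counts summed per library, with genotype as a covariate, and a gene was called at a Benjamini-Hochberg adjusted p under 0.05 over all 16456 genes tested. It called 11.4% of all genes higher at E10.5 and 12.2% lower.

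The steepest rise that could be sized belonged to Rgs5, a regulator of G protein signalling and marker of pericytes and young vascular smooth muscle. Its level was 1.19 CPM in the control and 0.816 CPM in the null library at E9.5, and at E10.5 it was 21.1 and 18.0 CPM in control and 11.3 and 21.6 CPM in null cells. The stages did not overlap, and the rise was 18.4-fold (log2 fold change 4.20 ± 0.36 SE, edgeR adjusted p = 0.00462).

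Acta2, which encodes smooth muscle α-actin, the most used early marker of the lineage, stood at 12.5 and 14.3 CPM in the control and null libraries at E9.5. At E10.5 it reached 60.6 and 37.6 CPM in the controls and 29.6 and 38.0 CPM in the null libraries, a 3.06-fold rise (log2 1.62 ± 0.29, adjusted p = 0.0120, edgeR). Every E10.5 library was above both E9.5 libraries. Without cardiac muscle cells, which also use Acta2 while they form, the rise was larger (log2 2.53).

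Tagln (transgelin, or SM22α) and Cnn1 (calponin), both actin-binding proteins of smooth muscle, rose alongside. Tagln went from 28.9 and 25.2 CPM to 74.0 and 80.4 CPM in the controls and 47.9 and 78.5 CPM in the null libraries (log2 1.39 ± 0.23, edgeR adjusted p = 0.0108). Cnn1 went from 0.926 and 1.15 CPM to 3.95 and 3.47 CPM in the controls and 1.74 and 4.48 CPM in the null libraries (log2 1.73 ± 0.44, edgeR adjusted p = 0.0308). For both genes the stages did not overlap, and null replicate 1 was the lowest of the 4 E10.5 libraries. Its embryos also had the fewest somites of the 4, and whether that bears on the levels was not tested.

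Actg2, the enteric smooth muscle actin, and Myh11, the smooth muscle myosin heavy chain that marks mature cells, were counted rarely. Actg2 had 17 and 18 UMIs at E9.5, and at E10.5 it had 69 and 49 in control and 218 and 64 in null cells (log2 2.71 ± 0.66, edgeR adjusted p = 0.0276). Myh11 had 0 UMIs in the control and 2 in the null library at E9.5, and the later libraries had 43 and 40 (control) and 37 and 18 (null). With so few UMIs at E9.5, Myh11 passed the low count filter only through the E10.5 libraries, so a rise was the only call it could get. It was called higher by edgeR, and neither a p nor a fold is read from that call. Acta2, Actg2 and the cardiac actin gene Actc1 encode nearly the same protein, and how the counting assigned reads shared between them was not tested.

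Of the 4 members that non-muscle cells also use widely, 1 was called between the stages. Without TMM factors Tpm2, a tropomyosin, was higher in both E10.5 controls than in the E9.5 control. In the null libraries it was lower at E10.5. With TMM factors it fell from 95.2 and 103 CPM to 73.4 and 74.9 CPM in the controls and 56.4 and 40.2 CPM in the null libraries (log2 −0.72 ± 0.21, edgeR adjusted p = 0.0463). This call was lost in each of the 6 fits that left out 1 library, with a cell filter of 200 genes and 5% mitochondrial UMIs, and with library totals, where it was at log2 −0.21. Myl9, the regulatory myosin light chain, just missed the threshold, with 34.5 and 21.6 CPM at E9.5 and 42.9 to 58.7 CPM at E10.5 (log2 0.82 ± 0.25, edgeR adjusted p = 0.0503), and it was called higher by DESeq2 (0.78), without cardiac cells (0.88) and without neural and glial cells (1.25). Tpm1, a second tropomyosin, and Cald1 (caldesmon) were not called, at log2 0.18 ± 0.20 and 0.26 ± 0.22.

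The stage result leans on the single E9.5 libraries, and in the fits that follow Myh11 could again only be called as a rise. Without the control library at E9.5, no gene of the 10 and none of all genes was called by edgeR, although 4215 genes had an unadjusted p under 0.05, and without the null library at E9.5 Rgs5 and Myh11 stayed called. Without control replicate 1 at E10.5 the members called were 4, Acta2, Tagln, Myh11 and Rgs5. Scaling by library totals, which put the median of all genes at 0.58 on the log2 scale in place of 0.07, called 9 members higher and none lower, beside 5799 genes higher and 554 lower of 16456, with Tpm2 at −0.21 and not called. Of 5 heart field markers 4 rose as well, Osr1, Wt1, Tcf21 and Tbx1. The endothelial Pecam1 and Kdr, the cardiac Nkx2-5 and the epithelial Epcam also rose and the endothelial Emcn fell, that is, 3 of 5, 1 of 7 and 1 of 3 markers. Of the 4 mesenchyme markers, Pdgfra, which did not define the gate, rose, and 2 of the genes that defined it fell. Without cardiac cells 8 members were called, beside 3977 of 16425 genes, and without neural and glial cells also 8, beside 4704 of 16025. The part of the other markers in the member results was not tested.

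The share of cells with a UMI is given after every cell was thinned to 5000 UMIs, so that the libraries are compared at 1 depth. The shares of cells with Rgs5, Acta2, Tagln and Cnn1 were higher in every E10.5 than in every E9.5 library. Over the 10 members in 7 libraries, 25 of 70 shares lay outside the interval given for them when neural and glial cells were left out. The shares depend on the depth chosen, with 48 of 70 outside their interval at 3000 UMIs and 65 without thinning. Rgs5 was found in 0.320% (control) and 0.33% (null) of mesenchymal cells at E9.5, and in 6.84% and 6.25% of control and 3.85% and 7.87% of null cells at E10.5. Acta2 was found in 0.754% and 0.956% at E9.5, and in 2.79% and 3.0% of control and 1.71% and 2.92% of null cells at E10.5. Tagln went from 3.24% and 2.75% to between 5.05% and 6.92%. Cnn1 went from 0.170% and 0.319% to between 0.695% and 1.48%.

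Free RNA in droplets gives some UMIs to cells that do not make a gene, and neural cells of the same libraries show how many. Their share was 0% to 0.491% for Rgs5 and 0.0723% to 0.642% for Acta2 in the E9.5 and E10.5 libraries, below the mesenchymal share of the same library in each case. In the E9.5 libraries no neural cell held an Rgs5 UMI, which allows shares of up to 0.276% (control) and 0.383% (null). By this limit alone the Rgs5 share of the null library at E9.5 was not distinguishable from background. Of the 23 mesenchymal cells with an Rgs5 UMI in that library, 11 were Foxf1-positive, against 7.82% of all its mesenchymal cells. Tagln was in 0.276% to 1.66% of neural cells and Cnn1 in at most 0.0723%. Tpm1, Tpm2 and Cald1 were in 23.9% to 31.5%, 8.25% to 15.5% and 36.8% to 59.2% of neural cells, against 45.4% to 66.1%, 19.3% to 31.1% and 61.4% to 83.4% of mesenchymal cells, and what part of the neural shares is background was not tested. In control cells the share of all 10 genes was higher at E10.5 in both libraries, if only from 29.2% to 29.7% and 30.7% for Tpm2. In null cells that of 9 was higher, and the exception was Tpm2, at 31.1% at the first stage against 24.7% and 19.3% at the second.

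**Figure D1:**
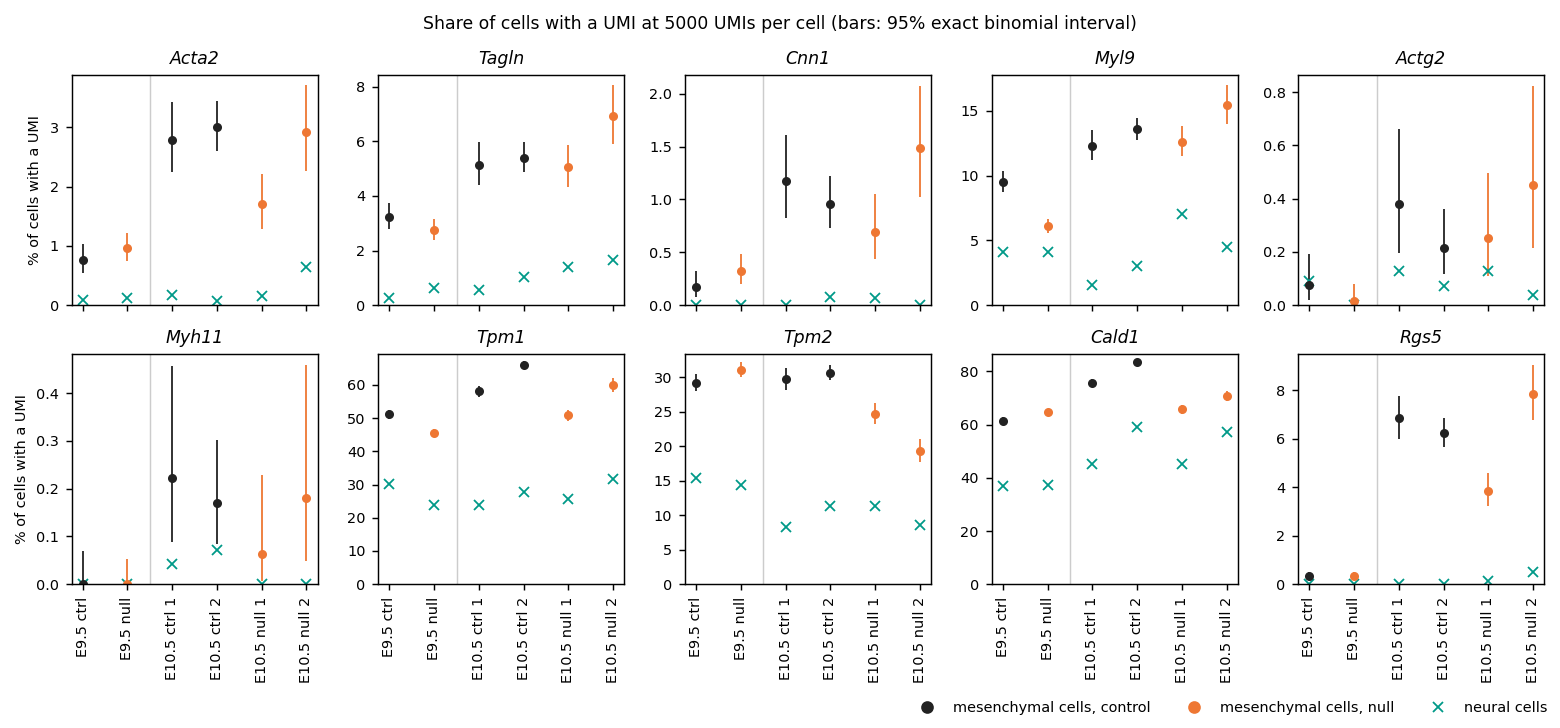
Percent of cells with at least 1 UMI of each gene, after thinning to 5000 UMIs per cell, by library; dots are mesenchymal cells of control (black) and null (orange) libraries with 95% exact binomial intervals, which cover counting error only, and crosses are neural cells. Rgs5 went from 0.320% and 0.33% at E9.5 to between 3.85% and 7.87% at E10.5, while Tpm1 and Cald1 were already in 45.4% or more of the mesenchymal cells at E9.5.

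The UMIs of the smooth muscle isoforms sat in few cells. At E10.5 the top 1% of mesenchymal cells held 78.9% and 76.9% of the Acta2 UMIs in the controls and 94.7% and 85.3% in the null libraries. For Tagln the top 1% held 59.5% to 72.4% of the UMIs and for Rgs5 34.2% to 53.4%, whereas for Tpm1 it held 9.59% to 12.3% and for Cald1 4.63% to 5.96%. Without thinning, cells with at least 10 Acta2 UMIs numbered 18 in the control and 25 in the null library at E9.5, of which 3 and 9 were cardiac cells, that is, held at least 10 UMIs of the cardiac markers other than Actc1. At E10.5 they numbered 70 and 100 in the controls (2.11% and 1.51% of mesenchymal cells) and 34 and 37 in the null libraries (1.07% and 1.66%), of which 7, 0, 1 and 3 were cardiac cells. In the 6 libraries the cells with at least 10 Acta2 UMIs held 90.2% to 96.9% of the mesenchymal Acta2 UMIs. A level of Acta2 summed over all mesenchymal cells therefore follows a small number of cells, and fewer such cells and less RNA per cell cannot be told apart in such a sum.

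The smooth muscle isoforms, with Rgs5, were found together more often than their separate shares would give. Observed cells with both genes were divided by the number expected if the genes were spread independently, which is the product of the shares times the number of cells. In the controls at E10.5, Acta2 and Cnn1 shared 30 and 47 cells against 1.03 and 1.86 expected, 29.1 and 25.3 times as many, and in the null libraries 29.3 and 25.9 times as many. For Acta2 and Tagln the ratio was 16.8 and 15.4 in the controls and 15.0 and 10.0 in the null libraries, and for Tagln and Cnn1 it was 17.9, 15.5, 11.7 and 12.7.

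The ratio of Rgs5 with Acta2 was below that of Tagln with Acta2 in each of the 4 E10.5 libraries, at 7.64 and 7.96 in the controls and 13.9 and 5.87 in the null libraries. Myl9 with Acta2 gave 6.08, 5.18, 6.45 and 4.58. All 10 pairs among Acta2, Tagln, Cnn1, Myl9 and Rgs5 were above 2 in each of the 4 E10.5 libraries. The widely used pair Tpm1 and Cald1 lay between 1.02 and 1.11. The share of the more widely found gene caps this ratio, so a pair of widely found genes cannot reach the ratios of rarer genes. Differences in the ratio between pairs, or between stages, are therefore not read as closer or looser ties. At E9.5 Acta2 and Tagln shared 30 cells against 1.30 expected in the control (a ratio of 23.1) and 43 against 1.82 in the null library (23.7). There the ratio of Rgs5 with Acta2 was the higher one, at 54.6 and 27.3, and rested on 7 and 6 cells.

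**Figure D2:**
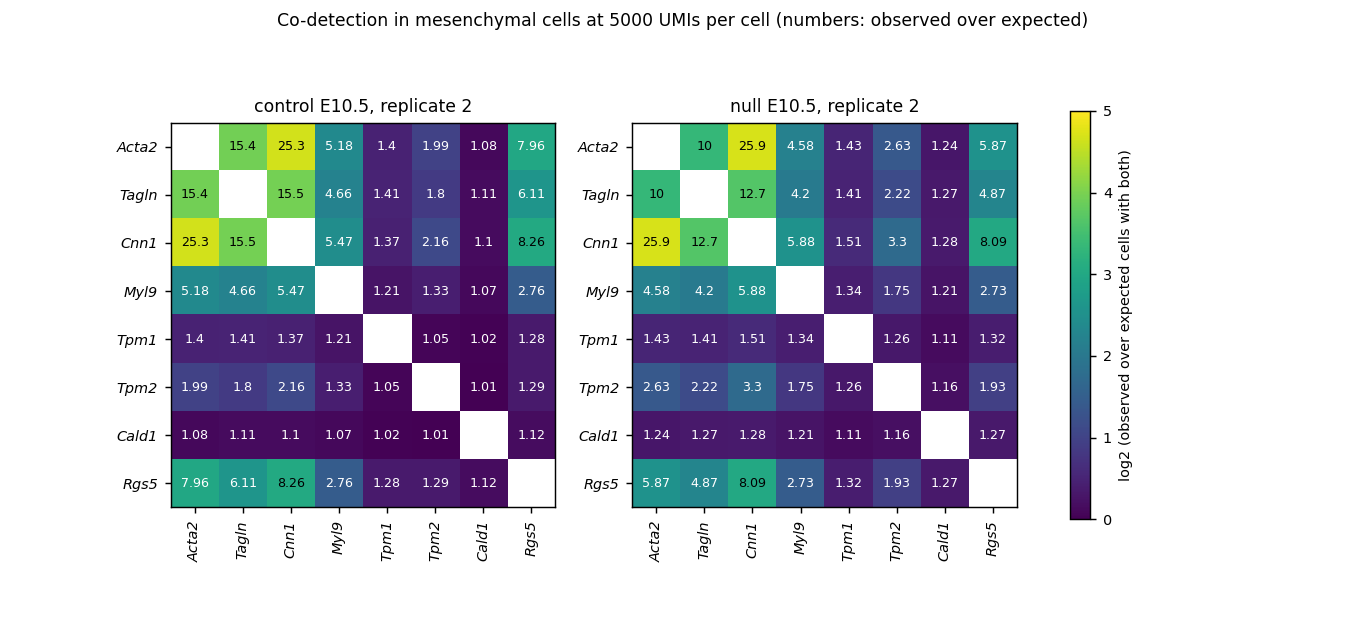
Observed over expected number of mesenchymal cells with a UMI of both genes at 5000 UMIs per cell, in replicate 2 of the control and null libraries at E10.5; the colour gives the same ratio on a log2 scale, and Actg2 and Myh11 are left out for their few cells. The corner of Acta2, Tagln and Cnn1 is at 10.0 to 25.9, and the pairs of Tpm1, Tpm2 and Cald1 are at 1.01 to 1.26. The share of the more widely found gene caps the ratio, so these ranges are not comparable.

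An order of gain can be read by lining up the cells by their Acta2 UMIs. In control replicate 2 at E10.5, the one E10.5 library with more than 20 cells in every bin, the mean Tagln count rose from 0.0850 UMIs in the 6305 cells without Acta2 to 4.17 in the 69 cells with 1 Acta2 UMI. It then reached 7.58 in the 59 cells with 2 to 4, 15.4 in the 31 cells with 5 to 9 and 19.2 in the 36 cells with 10 or more. Tagln was thus counted in cells with little Acta2, as this order of cells shows, which is not an order in time. Rgs5 went through 0.0718, 0.681, 1.14, 2.03 and 2.17 UMIs over the same bins, so it levelled off, and Cnn1 went through 0.00270, 0.101, 0.339, 0.387 and 1.33 UMIs, with its largest step in the last bin.

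For each gene the bin was then found in which the mean first passed the middle of its range, at 5000 UMIs per cell. Rgs5 passed it at 2 to 4 Acta2 UMIs in 3 of the E10.5 libraries and at 1 in null replicate 1. Cnn1 passed it at 10 or more Acta2 UMIs in all 4 libraries. So did Actg2, but on only 15 and 15 UMIs in the controls and 34 and 13 in the null libraries. Its place is therefore uncertain, and Myh11 had too few UMIs to be placed. Tagln passed it at 5 to 9 in 3 libraries and at 10 or more in control replicate 1. Myl9, Tpm1, Tpm2 and Cald1 passed it in different bins in different libraries. The bins depended on depth: at 3000 UMIs per cell Cnn1 passed at 5 to 9 Acta2 UMIs in 3 libraries and at 2 to 4 in null replicate 1, Actg2 at 5 to 9 in control replicate 1, Rgs5 at 5 to 9 in null replicate 2, and Tagln at 5 to 9 in 3 libraries and at 2 to 4 in null replicate 2. Rgs5 passed in a lower bin than Cnn1 in 4 of the 4 libraries at 5000 UMIs and in 3 at 3000 UMIs. In the 3 other libraries several bins held 6 to 18 cells, and at E9.5 the bins above 1 Acta2 UMI held 1 to 14, so no order is given for E9.5.

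**Figure D3:**
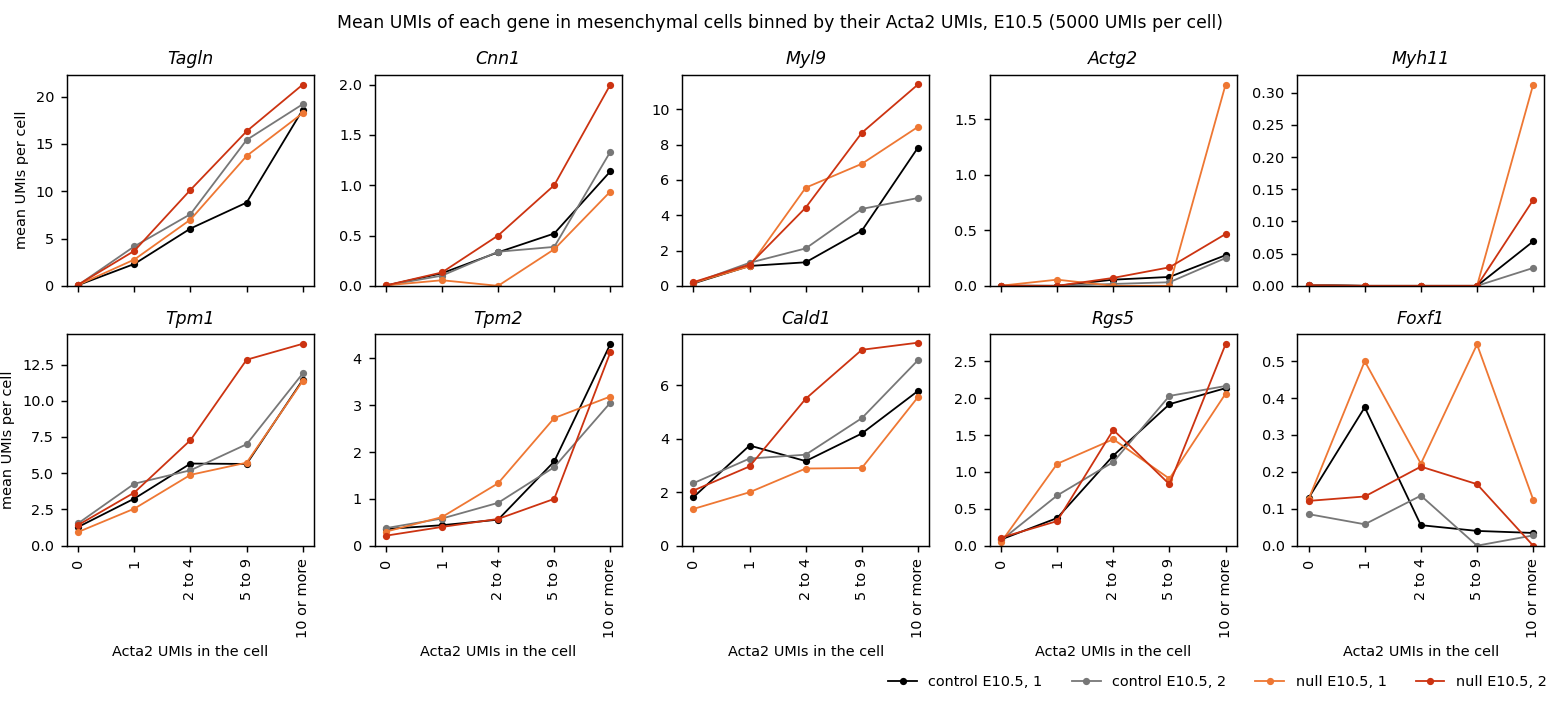
Mean UMIs per cell of each gene, and of Foxf1, in mesenchymal cells of the 4 E10.5 libraries grouped by their Acta2 UMIs, after thinning to 5000 UMIs per cell; each line is 1 library. At this depth Cnn1 passes the middle of its range in the last bin in every library, whereas Rgs5 passes it at 1 or at 2 to 4 Acta2 UMIs. Actg2 also passes it in the last bin, on only 13 to 34 UMIs per library. At 3000 UMIs per cell Cnn1 passes it in lower bins.

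Cells with several UMIs of 1 gene and none of another were counted as well. At E9.5, 38 of 65 control cells and 37 of 72 null cells with at least 3 Tagln UMIs had no Acta2 UMI at this depth, and at E10.5 this held for 21 of 89 and 53 of 187 control cells and 27 of 62 and 21 of 57 null cells. The reverse was rare: of the cells with at least 3 Acta2 UMIs, 0 of 16 and 1 of 24 at E9.5, and 2 of 66, 5 of 103, 3 of 33 and 0 of 28 at E10.5, had no Tagln UMI. Cells with at least 3 Rgs5 UMIs and no Acta2 UMI numbered 20 of 44 and 30 of 70 in the controls and 13 of 25 and 24 of 33 in the null libraries at E10.5. A count of 0 at this depth does not show that a cell lacks the transcript. Tagln was found in more cells than Acta2 in each of these libraries, as in 172 against 40 cells of the E9.5 control. Counts of 1 gene without another follow in part from such single shares, so they give no order of gain.

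Among the members called, Rgs5 differed most between Foxf1-positive and other cells at E10.5. A comparison of Foxf1-positive with other mesenchymal cells, with the library as a block, called 4 of the 10 members, all higher in Foxf1-positive cells, where 18.5% of the 14036 genes tested were called, 1263 higher and 1336 lower. Rgs5 stood at 58.3 and 58.9 CPM in Foxf1-positive cells of the controls and 39.2 and 70.2 CPM in those of the null libraries, against 14.1, 12.1, 4.97 and 12.1 CPM in other cells. It was higher in Foxf1-positive cells of every library, by 5.50-fold (log2 2.46 ± 0.13, edgeR adjusted p = 5.81e-05). It was found in 21.4%, 19.0%, 13.9% and 28.7% of Foxf1-positive and 3.92%, 4.46%, 1.82% and 4.18% of other cells. Of the cells with an Rgs5 UMI, 52.3% and 37.4% were Foxf1-positive in the controls and 60.7% and 54.9% in the null libraries, against 12.3% to 16.8% of all mesenchymal cells.

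Myl9 was higher as well, at 66.0 and 65.6 CPM in Foxf1-positive control cells and 88.5 and 101 CPM in Foxf1-positive null cells, against 45.8, 39.6, 32.1 and 50.5 CPM in other cells (log2 0.95 ± 0.13, edgeR adjusted p = 0.00287). Tpm1 (log2 0.39 ± 0.10) and Cald1 (log2 0.30 ± 0.06) passed with smaller differences (edgeR adjusted p = 0.0302 and 0.0177). With a gate of 4 UMIs 2 members were called, both higher, and after thinning to 5000 UMIs 2 were called higher and 1 lower. Without the neural and glial cells the calls of Tpm1 and Cald1 were lost, at log2 0.16 and 0.02, while Rgs5 (2.07) and Myl9 (0.71) stayed called. Without null replicate 2 the members called were these same 2, Rgs5 (2.42) and Myl9 (0.92).

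The actin genes and the other smooth muscle isoforms were not called between the Foxf1 classes, although Actg2 was with no low count filter (2.46) and with 200 genes and 5% mitochondrial UMIs (2.73), and Tagln (0.70) and Tpm2 (0.25) were with doublets kept. Without control replicate 2 the fit called 5 members, all higher, in place of 4. Acta2 was lower in Foxf1-positive than in other cells of both controls, at 43.2 and 29.8 against 64.2 and 38.4 CPM, and higher in both null libraries, at 93.1 and 41.5 against 15.0 and 37.4 CPM. The fitted difference was log2 0.45 ± 0.49 (edgeR adjusted p = 0.582), and it was −0.08 without neural and glial cells and −0.27 without null replicate 1. When cells were thinned to 5000 UMIs before they were divided, Acta2 was called lower in Foxf1-positive cells (log2 −0.70, edgeR adjusted p = 0.0329). Cells with more UMIs have more chance of a Foxf1 UMI, and median UMIs per cell were 21297 and 15369 in Foxf1-positive control cells and 25924.5 and 24119 in Foxf1-positive null cells, against 22321, 16361, 23653.5 and 21230 in other cells. Tagln (log2 0.57 ± 0.25), Cnn1 (0.96 ± 0.37), Actg2 (2.49 ± 0.83), Myh11 (1.40 ± 0.92) and Tpm2 (0.27 ± 0.09) did not pass either. Among cells with at least 10 Acta2 UMIs, the Foxf1-positive share was 12.9% and 12% in the controls, and 47.1% (95% exact binomial interval 29.8% to 64.9%) and 16.2% in the null libraries.

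The E9.5 levels in the Foxf1 classes are given as values, with 1 library per genotype and no test. In the control library Tagln stood at 117 CPM in Foxf1-positive and 22.7 CPM in other cells, and in the null library at 62.5 and 21.2 CPM. Tpm1 stood at 485 against 251 CPM in the control and 259 against 195 CPM in the null library. Rgs5 was low in both classes, at 4.23 and 3.09 CPM in Foxf1-positive and 0.978 and 0.579 CPM in other cells. When the stages were compared in Foxf1-positive cells alone, edgeR called 5 of the 9 members tested higher and 1 lower at E10.5, where 13.3% of 12854 genes were called higher and 12.8% lower. Of the 9, Actg2 had 3 UMIs (control) and 1 (null) in these cells at E9.5. It passed the low count filter only through the E10.5 libraries, so only a rise could be called for it. Rgs5 (log2 3.97) and Acta2 (1.76) were among those that rose, Tpm2 (−0.64) fell, and Tagln was at log2 0.06 and was not called.

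**Figure D4:**
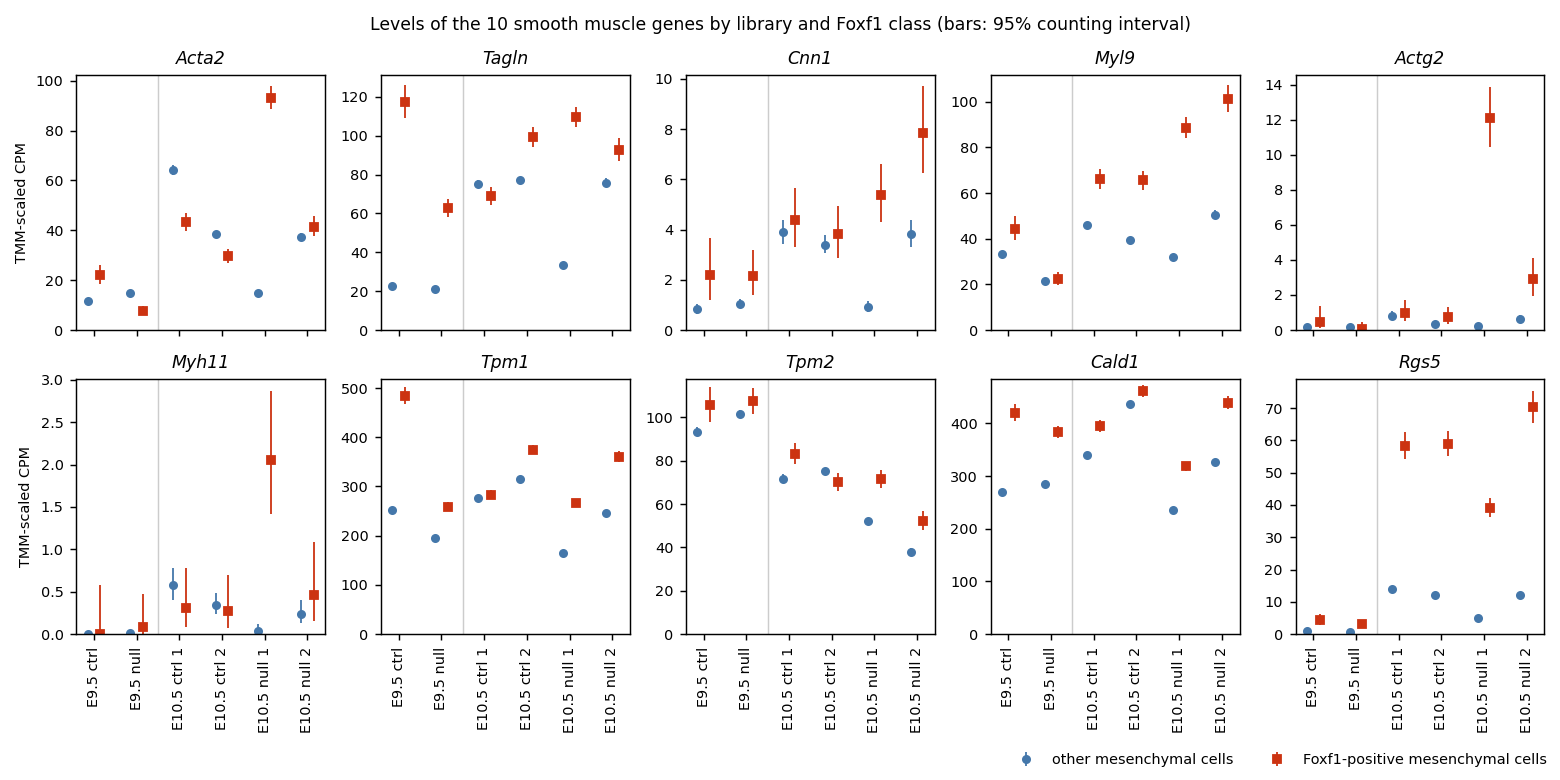
TMM-scaled CPM of each gene in Foxf1-positive (red squares) and other (blue circles) mesenchymal cells of each library, on linear axes from 0; bars are 95% Poisson intervals and cover counting error only. Rgs5 is higher in Foxf1-positive cells in every library, at 39.2 to 70.2 against 4.97 to 14.1 CPM at E10.5, and the Foxf1-positive cells of null replicate 1 stand out for Acta2 at 93.1 CPM and Actg2 at 12.1 CPM.

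Null and control libraries were then compared at E10.5, to ask whether loss of Tbx1, a T-box gene used in the tissues beside NCCs, went with a change in this gene group. With 2 libraries in each group an exact permutation test cannot go below p = 0.33, so only the fit over all genes was used. In all mesenchymal cells edgeR called 0 members, beside 0.100% of 15925 genes, with fitted values from −0.64 (Tpm2) to 1.42 (Actg2). In Foxf1-positive cells it called 0 of 9 tested, beside 0.0629% of 12726 genes, and in other mesenchymal cells 0 of 10, beside 0.147% of 15634 genes. At an unadjusted p under 0.05 there were 2, 3 and 1 members, beside 2393, 1440 and 2495 genes, and DESeq2 called 0, 1 and 0, beside 694, 120 and 758 genes. A missed threshold with 2 libraries per group does not show that the levels were alike.

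In Foxf1-positive cells the difference that came closest was that of Actg2, with 13 and 11 UMIs (0.997 and 0.748 CPM) in the controls and 200 and 31 UMIs (12.1 and 2.90 CPM) in the null libraries. Few cells carried these UMIs: at 5000 UMIs per cell, 2 and 4 Foxf1-positive cells in the controls and 3 and 2 in the null libraries held an Actg2 UMI. The groups did not overlap, and the fit gave log2 3.13 ± 0.62 (edgeR adjusted p = 0.131, DESeq2 adjusted p = 0.00128). Without null replicate 1 it was 1.79. Acta2 (log2 0.90 ± 0.36, adjusted p = 0.387, edgeR), Cnn1 (0.70 ± 0.32) and Myl9 (0.54 ± 0.22) were not called. The genotypes overlapped for Acta2 and not for Myl9 or Cnn1, whose levels were 4.37 and 3.81 CPM in the controls and 5.38 and 7.85 CPM in the null libraries. Rgs5 was at log2 −0.09 ± 0.29, or 0.03 with library totals, and Tagln at 0.28 ± 0.25.

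In other mesenchymal cells the fitted values of all 10 members were below 0, although scaling by library totals put Myl9 at 0.14. Acta2 was at log2 −0.99 ± 0.45 (edgeR adjusted p = 0.337), Tpm2 at −0.72 ± 0.24 (0.248) and Tagln at −0.51 ± 0.36 (0.514). Neural and glial cells were 12% and 2.10% of this class in the controls and 30.4% and 51.4% in the null libraries. Without them Acta2 was at −0.21, Tagln at 0.17, Cald1 at −0.01 and Rgs5 at 0.11. Null replicate 1 was the lower of the null libraries for 9 members in this class, the exception being Tpm2, as in 33.5 against 75.8 CPM for Tagln and 4.97 against 12.1 CPM for Rgs5.

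**Figure D5:**
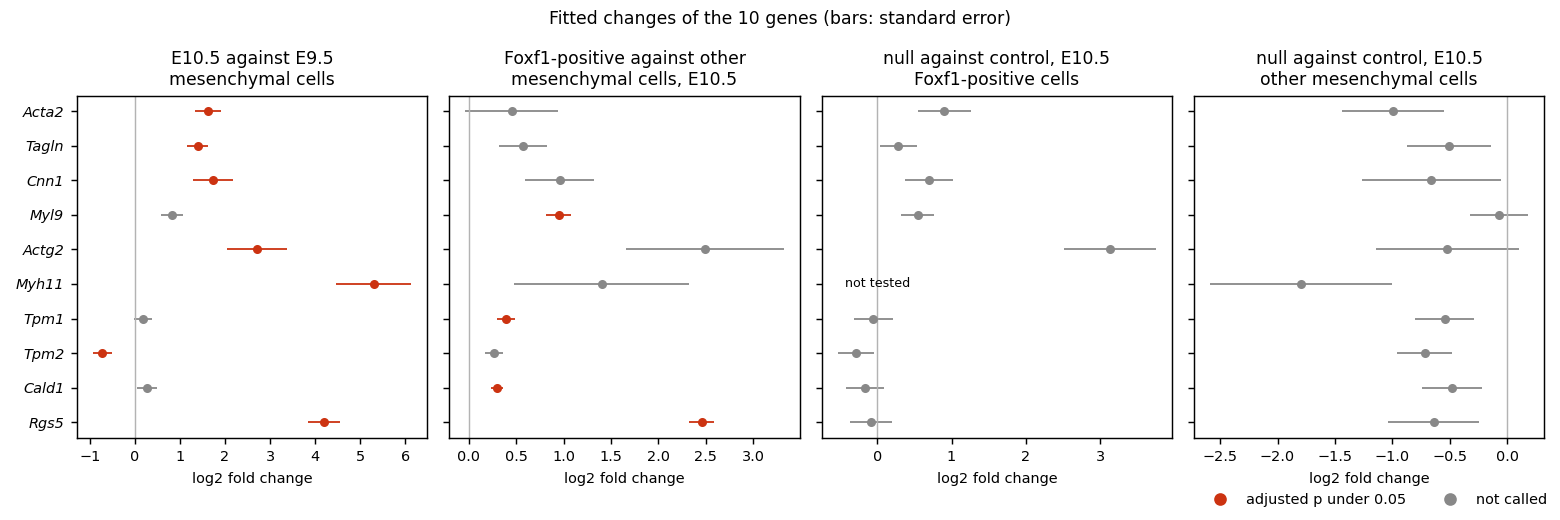
Log2 fold change of each gene with its standard error in 4 edgeR comparisons, on a separate axis for each; red marks an adjusted p under 0.05. Between the stages 7 genes are called, between Foxf1 classes 4, and between null and control libraries none in either class. The Myh11 value between the stages rests on 2 UMIs at E9.5, is not a measure of size and could only be called as a rise.

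Whether the genotype difference was the same in both Foxf1 classes was tested as an interaction. All 10 fitted values were positive, that is, the null-against-control difference was higher in Foxf1-positive than in other cells, with a median of 0.76 against 0.035 over all genes. The test called 2 members, Myl9 (log2 0.62 ± 0.12, edgeR adjusted p = 0.0369) and Tpm1 (0.48 ± 0.08, edgeR adjusted p = 0.0164), beside 0.991% of 14930 genes called in this direction. Acta2 was at 1.95 ± 0.55 and was not called (edgeR adjusted p = 0.129), and the members not called lay between 0.29 (Cald1) and 3.51 (Actg2), leaving aside Myh11 for its few UMIs. Without neural and glial cells neither was called, at 0.34 and 0.17, and Cald1 and Rgs5 were below 0, at −0.13 and −0.03. Without null replicate 2 all 10 members were called, where 533 of 15589 genes were called in this direction, and without null replicate 1 there were 5, where 560 of 15425 were. In both fits the single null library is assumed to vary like the other groups. The cardiac genes Myl7 (4.14 ± 0.68), Tnnt2 (3.90 ± 0.80) and Actc1 (2.89 ± 0.60) were called in the same direction, as were Tcf21 (2.66 ± 0.50) of the heart field and the mesenchyme marker Pdgfra (0.54 ± 0.10). Prrx1 (0.55 ± 0.08) and Prrx2 (0.42 ± 0.09) were higher too, but they are among the genes by which the cells were gated. In Foxf1-positive cells the 7 cardiac markers summed, without TMM scaling, to 35.3 and 32.2 CPM in controls and 63.6 and 84.9 in null libraries. Other cells had 90.0 and 15.6 CPM in controls and 19.0 and 26.0 in null libraries, also unscaled. Without the cardiac cells Myl9 and Tpm1 stayed called.

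At E9.5 the genotypes were compared as values only, since each has 1 library. In Foxf1-positive cells Acta2 had 141 UMIs (22.1 CPM) in the control and 90 UMIs (7.73 CPM) in the null library, a log2 ratio of −1.51 with a 95% counting interval of −1.91 to −1.12. Only 3 of these cells in the control and 4 in the null library held at least 10 Acta2 UMIs. The interval counts each UMI as independent, so it is narrower than so few cells allow. Tagln (log2 −0.91), Myl9 (−0.98) and Tpm1 (−0.91) were also lower in the null library, while Tpm2 (0.02), Cald1 (−0.13) and Cnn1 (−0.05) lay near 0. Rgs5, with 27 and 36 UMIs, was at −0.46 with a counting interval of −1.21 to 0.32. Of the 8 members with at least 10 UMIs, 1 was at least 2-fold lower, beside 2.52% of all genes. In all mesenchymal cells the members lay between −0.67 (Myl9) and 0.31 (Cnn1), leaving out Actg2 and Myh11 with at most 18 UMIs in a library. Acta2 was at 0.19 there, and at −0.47 without cardiac cells. With an E9.5 counting interval without 0 and no overlap of the E10.5 libraries, the null libraries lay on opposite sides of the controls at the 2 stages for 2 of 9 members in all mesenchymal cells, 1 of 8 in Foxf1-positive and 3 of 9 in other cells, beside 12.8%, 7.51% and 12.5% of all genes with at least 10 UMIs at E9.5.

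Lists of related genes were counted in the same fits, in which 1263 of 14036 genes were called higher and 1336 lower in Foxf1-positive cells, and 11.4% of genes were called higher and 12.2% lower at E10.5 than at E9.5. The lists were counted with neural and glial cells included, and not again without them. Of 18 other contractile and cytoskeletal genes, 11 were higher in Foxf1-positive cells at E10.5 and none lower, with a median of log2 0.47 against 0.01 over all genes. Synpo2, an actin-bundling protein (1.38 ± 0.15), Des, the muscle intermediate filament desmin (1.20 ± 0.11), and Itga8, an integrin subunit (1.02 ± 0.15), were the highest. Between the stages 4 of the 18 rose, Pdlim3 (4.25 ± 0.45), Lmod1 (2.51 ± 0.57), Synpo2 (2.20 ± 0.53) and Itga1 (1.40 ± 0.27).

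Among the regulators, leaving out Foxf1 itself, 3 of 8 tested were higher in Foxf1-positive cells: Prdm6 (1.55 ± 0.16) and Fhl2 (1.55 ± 0.11), both tied to smooth muscle gene control, and Klf4 (0.78 ± 0.19). Myocd, the myocardin gene, was too low to be tested between the Foxf1 classes. Prdm6 (2.49 ± 0.35), Foxf1 (1.84 ± 0.23) and Klf4 (1.39 ± 0.40) rose between the stages, 3 of 10. Of the mural cell genes, which mark pericytes and vascular smooth muscle, 4 of 10 tested were higher in Foxf1-positive cells, led by Kcnj8 (3.43 ± 0.48) and Abcc9 (2.58 ± 0.37), which form a potassium channel of pericytes, and 2 were lower, Heyl (−1.35 ± 0.26) and Ndufa4l2 (−1.25 ± 0.34). Between the stages 5 of the 10 rose, among them Cspg4 (2.50 ± 0.40) and Notch3 (0.89 ± 0.18), and Ndufa4l2 fell.

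The cytoplasmic counterparts, such as the non-muscle actins and myosins, gave 6 of 11 higher in Foxf1-positive cells, none by more than log2 0.46 (Myh9), and 0 of 11 between the stages (edgeR). In the interaction 2 of 18 other contractile and cytoskeletal genes were called, Csrp2 (0.56 ± 0.08) and Cnn2 (0.39 ± 0.07). Of the mural cell genes 1 of 10 was called, Pdgfrb (0.62 ± 0.10), and of the cytoplasmic counterparts 1 of 11, Tpm4 (0.33 ± 0.07). None of 10 regulators was called, and 0.991% of 14930 genes were called in this direction. These calls were not examined without neural and glial cells, where those of Myl9 and Tpm1 were lost. Between null and control libraries no gene of the 4 lists was called by edgeR in any class. Markers of other cells moved with the Foxf1 classes: Nkx2-5 (3.64 ± 0.38), Tcf21 (2.58 ± 0.55), Tbx1 (2.30 ± 0.23) and Osr1 (1.85 ± 0.17), genes of the heart field and of heart-near mesoderm, were higher in Foxf1-positive cells. The epithelial keratins Krt8 (0.55 ± 0.15) and Krt18 (0.72 ± 0.17), 2 of 3 epithelial markers tested, the endothelial Pecam1 (0.83 ± 0.18), 1 of 2, and the cardiac Tnni1 (1.26 ± 0.12), which with Nkx2-5 made 2 of 6, were also higher there (edgeR). The 4 epithelial markers summed to 39.8 to 74.4 CPM in Foxf1-positive and 23.5 to 48.2 CPM in other cells at E10.5, without TMM scaling. At E10.5 the 5 heart field markers summed, also unscaled, to 33.9 to 85.2 CPM in Foxf1-positive and 7.20 to 20.0 CPM in other cells. The 3 neural markers Sox2, Elavl3 and Tubb3 and the glial genes Sox10 and Foxd3 were lower in Foxf1-positive cells (edgeR). Of the 4 mesenchyme markers 2 were lower there and none higher. Without cardiac cells the same number of members, 4, was called between the Foxf1 classes. The part of the remaining markers was not tested beyond the comparison without neural and glial cells.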

How the data were processed

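The authors aligned reads to mm10 with Cell Ranger 6.0.1 and deposited raw UMI counts per gene and cell, without normalization, for barcodes called as cells. Barcodes were kept from 1000 detected genes upwards if mitochondrial UMIs made up no more than 10%, and the highest Scrublet scores (scanpy 1.11.5; 0.8% of barcodes per 1000 barcodes) were removed as doublets. Counts were summed per library and cell class and tested with edgeR 4.0.16 (R 4.3.3; TMM, filterByExpr, glmQLFit, glmQLFTest) over all genes, p-values being adjusted after Benjamini and Hochberg (threshold 0.05). Cells are not replicates, so the library was the unit, and p-values measure only the spread between these libraries. At E9.5, log2 ratios used a prior of 0.5 UMIs. Shares used cells thinned to 5000 UMIs, leaving out shallower cells, with 95% Clopper-Pearson intervals. Neural cells were those with no UMI of Twist1, Prrx1 or Prrx2 and at least 4 UMIs of Sox2, Elavl3 and Tubb3 together. Intervals cover counting error only. Scripts were tested on simulated data.

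The 10 members and the gene lists were chosen with earlier results of these data known. All members are named; of each list the largest or smallest changes are named, with its total. Alternatives were DESeq2 1.42.0, its size factors, library totals, no low count filter, other cell filters, doublets kept, thinning, stricter gates, a replicate block and leaving out each library; leaving out cardiac or neural and glial cells was added after seeing the data. Gene positions and sequences were from GRCm38. A gene of the marker lists is not reported here.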

Additional observations from a re-analysis of the deposited data

Results flagged for a closer look

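The genotype difference at E10.5 differed between Foxf1-positive and other mesenchymal cells for Myl9 (log2 0.618) and Tpm1 (log2 0.484) by the edgeR interaction test. Neither call held without neural and glial cells, after thinning, with 200 genes and 5% mitochondrial UMIs or with a gate of 4 UMIs. With library totals 1 member was called.

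For 6 pairs of gene and cell class, among those with at least 10 UMIs at E9.5 and an E9.5 counting interval without 0, the null library lay on one side of the control at E9.5 and both null libraries lay on the other side of both controls at E10.5. Over all genes 7.51% to 12.8% lay so in a class. These differences between the stages were not tested. Actg2 in all mesenchymal and in Foxf1-positive cells, Cnn1 in Foxf1-positive cells and Myh11 in other mesenchymal cells also lay on opposite sides, with few UMIs or an E9.5 interval that holds 0. In all mesenchymal cells Tpm2 had a log2 ratio of null to control of 0.113 at E9.5 and −0.639 at E10.5, and Cald1 had 0.0724 and −0.425. In Foxf1-positive cells Myl9 had −0.979 and 0.543. In other mesenchymal cells Acta2 had 0.334 and −0.994, Tpm2 had 0.119 and −0.717, and Cald1 had 0.0784 and −0.482. For Acta2 in these cells the E9.5 value was −0.34 without cardiac cells and −0.0819 after thinning, so the sides were then the same. Without neural and glial cells the E10.5 values were −0.21 for Acta2, −0.35 for Tpm2 and −0.01 for Cald1.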

How the results depend on the processing

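Counts of members called were 7 between stages, 4 between Foxf1 classes, 2 in the interaction and 0 between genotypes. Between stages they were 0 to 6 when 1 library was left out (0 without the E9.5 control), and genes called went from 3884 to 6353 with library totals and to 0 to 4800 with 1 library left out. Between Foxf1 classes members were 2 with a gate of 4 UMIs or without neural and glial cells, 5 with no filter or 200 genes and 5%, 6 with doublets kept and 2 to 5 with 1 library left out, and genes went from 2599 to 787 after thinning and to 1366 to 2318 with 1 library left out. In the interaction members were 1 with library totals, 10 with no low count filter, 7 with 2 Foxf1 UMIs, 0 after thinning, with 200 genes and 5% mitochondrial UMIs, with a gate of 4 UMIs or without neural and glial cells, and 1 to 10 with 1 library left out; genes went from 245 to 369 with DESeq2 size factors, 1258 with no filter, 141 after thinning, 140 with 200 genes and 5%, 477 with 2 Foxf1 UMIs and 44 to 1134 with 1 library left out.

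Between genotypes, genes called in all mesenchymal, Foxf1-positive and other cells were 16, 8 and 23, against 694, 120 and 758 with DESeq2, 1409, 465 and 1393 with no filter and 41, 15 and 37 after thinning. With 1 library left out they were 1 to 284, 8 to 1296 and 9 to 234. DESeq2 size factors gave 4 and 5 and library totals 2 and 3 in all and in other cells, 200 genes and 5% gave 0 in Foxf1-positive cells, and leaving out neural and glial cells gave 10 in other cells. Members called were 1, 2 and 1 with no filter; in Foxf1-positive cells they were 1 with DESeq2 and 0 to 3 with 1 library left out. By their labels, same-numbered libraries shared only a number. In all mesenchymal cells their deviations had r = 0.0578 over 15925 genes, and this was not examined in the Foxf1 classes. A replicate block gave 94, 518 and 60 genes and 2 members in Foxf1-positive cells, Acta2 and Actg2.

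Among the edgeR and DESeq2 values of the members, 50 of 900 alternative values had the opposite sign with no call in either fit, of which 14, 11 and 15 were between genotypes in all mesenchymal, Foxf1-positive and other cells, and 1 was called with the opposite sign. That was Acta2 between Foxf1 classes after thinning (−0.70). At E9.5 signs turned for Acta2 in mesenchymal cells after thinning (−0.14), with 200 genes and 5% (−0.0848) and without cardiac cells (−0.47), for Rgs5 in mesenchymal cells (0.18) and for Cald1 (0.0572) and Cnn1 (0.36) in Foxf1-positive cells after thinning. In other cells at E9.5 they turned for Acta2 without cardiac cells (−0.34) and after thinning (−0.0819), for Rgs5 after thinning (0.42), for Tagln without neural and glial cells (0.0972) and for Actg2 with 200 genes and 5% (0.0058). Myh11, with 2 UMIs or fewer, is left aside. The causes were not tested. With 1 library per genotype at E9.5 and 2 at E10.5, small differences were not detectable.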

Other observations

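Mesenchymal cells with at least 10 Acta2 UMIs, cardiac muscle cells left out, carried a wider set of muscle transcripts at E10.5. In these cells, chosen by Acta2, the levels are a description with no test, as CPM without TMM scaling. Actc1, the cardiac actin gene, stood at 519 and 365 CPM in the controls and 874 and 355 CPM in the null libraries, against at most 2.09 CPM in the remaining mesenchymal cells, and the cardiac genes Tnnt2 and Myl7 were at 5.00 CPM or less. The cells left out were chosen by cardiac genes that include Tnnt2 and Myl7 but not Actc1, so the low levels of those genes are in part set by that choice. Pdlim3, an actin-associated LIM protein, stood at 657, 789, 489 and 508 CPM against at most 6.18, and Myocd at 5.63, 5.73, 2.50 and 6.75 against at most 0.206.

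The same cells had Krt8 at 159, 106, 382 and 230 CPM, a keratin of simple epithelia, against at most 14.1 in the rest, while the epithelial gene Epcam was at 0.626, 0.477, 0 and 3.85 CPM. Pecam1, an endothelial adhesion gene, stood at 35.7, 39.1, 22.5 and 29.9 CPM against at most 1.99, while Cdh5 and Tie1, which define endothelium, were at 1.25 CPM or less. The pericyte genes Kcnj8 and Abcc9 were at 2.50 CPM or less in these cells, and Prrx1 was at 100 to 157 CPM against 316 to 435 in the rest.

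Cells with at least 10 Rgs5 UMIs numbered 40 and 44 in control and 20 and 31 in null libraries of the later stage. Of these, 24, 27, 9 and 14 also had at least 10 Acta2 UMIs, and 22.5%, 43.2%, 70.0% and 45.2% were Foxf1-positive. All 10 members were found in 4 thinned cells, 1 in control replicate 1, 2 in null replicate 1 and 1 in null replicate 2. At E8.5, in the control library made with kit v2, Acta2 was in 0.505%, Tagln in 0.939%, Myl9 in 12.3% and Rgs5 in 0.0361% of the gated cells, of which 53.6% had at least 3 UMIs of the neural and glial genes.

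The 5 other genes whose log2 CPM followed the mean z score of the members most closely over the 12 sums of library and Foxf1 class were Foxc2 (Pearson r = 0.926), Runx1t1 (0.874), Tns3 (0.873), H19 (0.868) and Ccdc80 (0.866), among 7523 genes. The 2 sums of a library share its depth, and no p is given.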
